A study of Mus musculus with 11 samples.

Results

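The genes described here are the translation initiation and elongation factors of mouse β-cells. They were taken as every protein-coding gene whose symbol starts with Eif1 to Eif6 or with Eef1 or Eef2, so that the 4E-BP repressors and the eIF2α kinases are included. The rule found 67 genes among the 34745 entries of the deposited table. Another 8 entries with such symbols are annotated as pseudogenes or other non-coding genes and were left out. RNA was measured in GFP-labelled β-cells sorted from mice of a mixed C57BL/6 x 129SV background at 8 weeks of age. The WT group had 3 libraries, and the diabetic and the euglycemic βRapKOGFP groups had 4 each. All 3 groups carried the RIP-Cre and Rosa26-GFP alleles, and both mutant groups lacked Raptor in the cells in which the rat insulin promoter drives Cre, so the label marks cells that have expressed that promoter and not present insulin production. The diabetic mice had no insulin pellet and the euglycemic mice carried a slow-release insulin pellet. The values are FPKM, fragments scaled to the length of the transcript and to the depth of the library, so that levels of different genes can be compared within the limits of shared sequence given below.

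Protein synthesis starts when eIF2, loaded with GTP and the initiator tRNA, joins eIF1, eIF1A, eIF3 and eIF5 on the small ribosomal subunit, and the eIF4F complex brings this assembly to the mRNA cap. Phosphorylation of eIF2α by its kinases turns eIF2 into an inhibitor of its own exchange factor eIF2B, and β-cells depend on this brake because of their large load of secretory protein. Raptor is the defining subunit of mTORC1, which phosphorylates the 4E-BPs and so frees the cap-binding protein eIF4E. Many mRNAs of the translation machinery start with a C followed by an unbroken run of C and T, the TOP motif, through which mTORC1 controls their translation rather than their abundance. Libraries of RNA measure abundance and not this control.

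Start sites of the family are shown because of that motif. RefSeq promoter windows on GRCm38.p6 were at hand for 51 of the 67 genes, in 66 windows. The windows printed here run from 30 bases before the annotated start to 20 bases from it, 5′ to 3′ on the gene's strand, with the run of C and T from the start base in capitals. Eif3f and Eif2s3x were the 2 members with a C at the start and at least 4 more C or T, Eef1a1 starts with a T in this annotation, and Eif2b5 has a long run on both sides of its start. Eif2ak3 and Eif2ak4 are shown because their values are described below.
Eif3f (eIF3 subunit, chr7:108934385-108934434, plus strand): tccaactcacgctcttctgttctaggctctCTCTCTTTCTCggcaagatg
Eif2s3x (eIF2γ, chrX:94212632-94212681, minus strand): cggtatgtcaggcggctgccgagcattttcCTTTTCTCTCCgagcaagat
Eef1a1 (eEF1A1, chr9:78481705-78481754, minus strand): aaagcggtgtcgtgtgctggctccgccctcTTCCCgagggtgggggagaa
Eif2b5 (eIF2Bε, chr16:20498787-20498836, plus strand): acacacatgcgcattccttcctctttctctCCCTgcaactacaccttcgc
Eif2ak3 (PERK, chr6:70844485-70844534, plus strand): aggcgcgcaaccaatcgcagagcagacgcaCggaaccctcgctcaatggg
Eif2ak4 (GCN2, chr2:118388587-118388636, plus strand): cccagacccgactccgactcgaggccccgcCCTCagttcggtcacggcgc

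A C start with at least 4 more C or T was found in 3.03% of the members' windows and in 2.51% of all 32851 windows. This count rests on the exact base annotated as the start, and a start placed a few bases away would change it. Eef2 has a G there, for example, and a run of C and T that begins 14 bases after it. A run of at least 8 C or T within 20 bases of the start was found in 24.2% of the members' windows, against 16.5% of all windows. The E-box letters CACGTG, searched on both strands of the whole window, were in 21.2% of the members' windows, in 10.2% of the windows of genes tested and in 7.15% of all windows. The letters TTNCATCA, searched likewise, were in 3.03% of the members' windows, in 2.12% of those of genes tested and in 3.97% of all windows. These shares describe letters in a window and not sites that are used.

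Rptor, the gene deleted in the mutants, was at 0.948, 1.36 and 1.79 FPKM in WT, 0.937, 0.831, 0.507 and 0.485 in diabetic and 0.423, 0.481, 0.623 and 0.438 in euglycemic libraries. Every mutant library was below every WT library. An exact two-sided permutation test of the mean log2(FPKM + 1) gave p = 0.0571 for each mutant group against WT, the smallest that 4 against 3 can reach with this test, and p = 0.0121 for both together. Depth was inferred from the steps between low values at 9498908 to 16645722 fragments a library. Some libraries stood apart. Diabetic 1 listed 26% of the entries at 0 against 50.1 to 62.3% in the others, euglycemic 4 listed the most, and in WT 1 Ins1 and Ins2 made up 25.9% of all FPKM against 40.5 and 37.8% in WT 2 and WT 3. All 8 β-cell markers had a median of at least 1 FPKM in each group. Their summed FPKM was 156520 to 190541 in WT, 137722 to 206198 in diabetic and 116568 to 201843 in euglycemic libraries. The medians of these sums were 180199, 141465 and 138397. The summed FPKM of 8 acinar markers was 2.78 to 29.8 in WT, 15.1 to 1724 in diabetic and 14.3 to 3077 in euglycemic libraries. The sum of 5 α-cell markers was 1037 to 2427, 3927 to 14697 and 4745 to 23742, that of 3 δ-cell markers 1176 to 2514, 4941 to 12262 and 4864 to 13953, and Ppy, the PP-cell marker, 364 to 909, 3007 to 11315 and 3616 to 12189.7. The sum of 6 endothelial markers was at most 1.52 in WT, with Cdh5, Kdr and Eng listed at 0 in all 3 libraries, 7.54 to 47.3 in diabetic and at most 2.33 in euglycemic libraries. The sum of 4 duct markers was 3.75 to 6.79 in WT, 17 to 30.8 in diabetic and 29.8 to 42.1 in euglycemic libraries. The sum of 4 immune markers was 9.34 to 22.1 in WT, 0.793 to 89.9 in diabetic and 1.22 to 33.1 in euglycemic libraries. That of 3 stellate markers was at most 0.0521 in WT, 0.06 to 7.4 in diabetic and at most 0.113 in euglycemic libraries. The immune, stellate and endothelial sums were all highest in diabetic 1. The sum of 7 dissociation and immediate early genes had a WT median of 2652, against 1110.2 for the diabetic and 1395 for the euglycemic group. The α-cell, δ-cell, PP-cell and duct sums were higher in every mutant than in every WT library. The β-cell, acinar and immune sums and those of the dissociation and immediate early genes overlapped between WT and each mutant group. The endothelial and stellate sums overlapped between WT and euglycemic libraries. The part of these lists in the results below was not tested. In sorted bulk RNA, fewer cells with an mRNA and less of it per cell cannot be told apart.

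Most of the machinery was well expressed. Over the 11 libraries 40 of the 67 genes had a mean of at least 10 FPKM and 5 of at least 100. These 5 were Eef2, the factor that moves the ribosome along, at 158 FPKM, Eif1, which guards start codon choice, at 157, Eif5, the GTPase-activating protein of eIF2, at 154, the eIF3 subunit Eif3g at 127 and Eef1a1, which delivers aminoacyl-tRNA, at 122. Another 3 genes had means under 1 FPKM and were not tested, namely Eef1a2, Eif4ebp3 and the oocyte cap-binding gene Eif4e1b, which was listed at 0 in all libraries. The other 64 passed the filter of at least 1 FPKM in at least 3 libraries.

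No translation factor gene passed an adjusted p of 0.05 with a 1.5-fold change in limma's linear model on log2(FPKM + 1), adjusted over the 11251 genes tested, although in euglycemic against WT 19 did, among 2287 of all genes, when the libraries were weighted, and 14, among 1274 of all genes, without WT 1, diabetic 1 and euglycemic 4. This was so for diabetic against WT, where 0.969% of all genes passed, for euglycemic against WT, with 0.551%, for diabetic against euglycemic, with 0.00889%, and for both mutant groups together against WT, with 1.05%. At an unadjusted p of at most 0.05, limma gave 7 members in diabetic against WT, 6 higher and 1 lower, where 11.9% of all genes passed (6.15% higher and 5.74% lower). It gave 10 in euglycemic against WT, 9 higher and 1 lower, where 13.9% passed (7.33% higher and 6.52% lower). It gave 7 in diabetic against euglycemic, 4 higher and 3 lower, with 20.6% of all genes (10.6% higher and 10% lower), and 5 in both mutant groups against WT, all higher, with 11.3% (5.94% higher and 5.37% lower). Of the 64 members tested these are 10.9, 15.6, 10.9 and 7.81%, on either side of the shares of all genes. With a 1.5-fold change also asked for, 5, 4, 5 and 1 members were left, where 8.26, 9.92, 12 and 6.92% of all genes were.

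The members whose libraries did not overlap between groups were about as frequent as such genes in the whole table. In diabetic against WT there were 10 of 64, 7 higher and 3 lower, where 13.5% of all genes did not overlap (6.67% higher and 6.88% lower). In euglycemic against WT there were 6, 5 higher and 1 lower, where 10.9% did not (5.91% and 5.02%). In diabetic against euglycemic there were 8, 3 higher and 5 lower, where 14.3% did not (6.85% and 7.42%). Both mutant groups stood clear of WT in 2 members, Eef1a1 and Eif2ak4, both higher, where 3.68% of all genes did (1.9% higher and 1.78% lower).

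The small differences leaned one way. In diabetic against WT 44 of 64 members (68.8%) had the higher mean, in euglycemic against WT 50 (78.1%) and in both mutant groups against WT 51 (79.7%), where 50.7, 49.0 and 49.4% of all genes had. The median log2 fold change of the members was 0.11, 0.24 and 0.18, and that of all genes tested was 0.01, -0.01 and -0.0035. Diabetic against euglycemic gave a median of -0.19, with 16 of 64 members higher in diabetic (25%, against 50.9% of all genes). The member medians stayed above 0 under each of the 21 alternative settings, at 0.03 to 0.22 in diabetic and 0.15 to 0.42 in euglycemic against WT. Both were lowest without WT 2. With no filter on low values 68.2% of the members and 67.8% of all genes had the higher mean in diabetic against WT, so that the members did not stand out there, and the shares were 78.8 and 36.8% in euglycemic and 78.8 and 66.9% in both groups against WT. With each library rescaled to TPM the median of all genes in diabetic against euglycemic was 0.12 and that of the members -0.09.

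**Figure D1:**
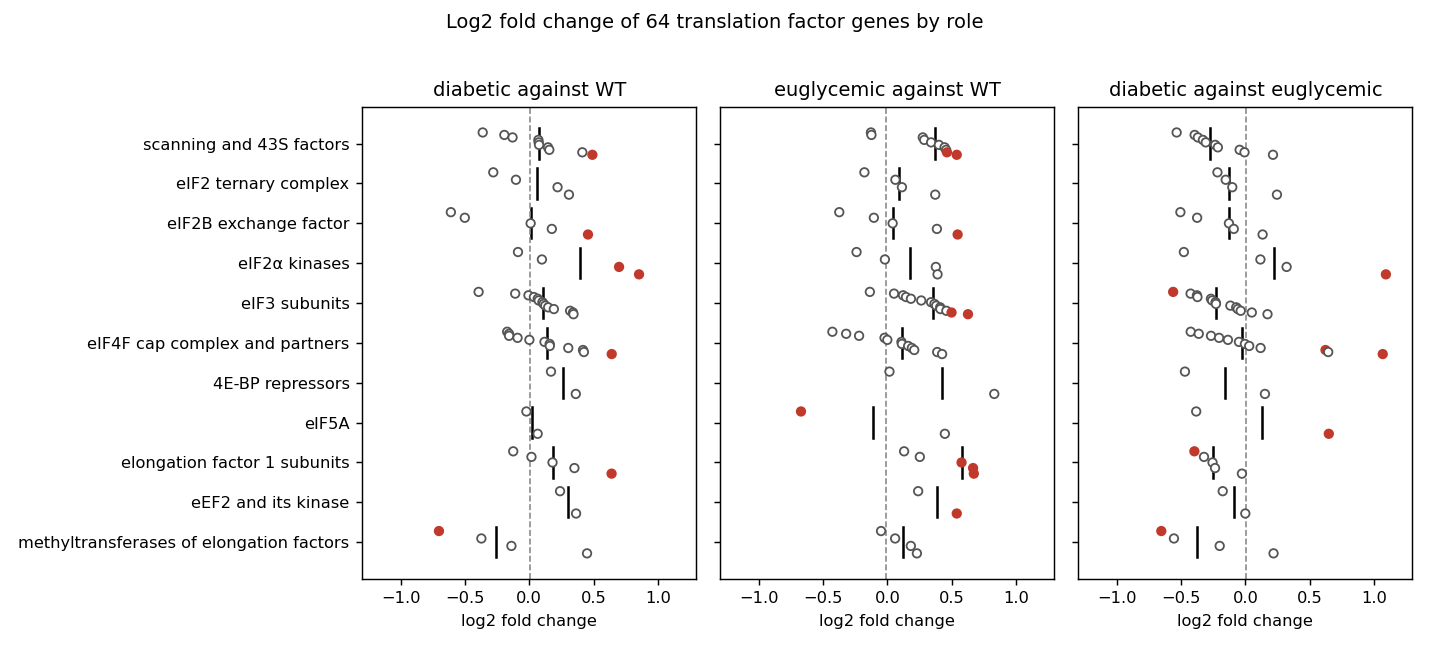
Log2 fold change on the log2(FPKM + 1) scale (x axis) of the 64 translation factor genes tested, by role (y axis), in 3 comparisons. Each circle is a gene, filled where limma's unadjusted p was at most 0.05, the black bar is the median of the role and the dashed line the median of all genes tested. Most roles lie right of the line in euglycemic against WT, and the filled circles farthest to the right in diabetic against euglycemic are Eif2ak3 and Eif4g2.

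The summed level of all 67 genes depended on the library as much as on the group. It was 2358, 1670.3 and 1785 FPKM in WT, 1956, 1967, 2365 and 2208 in diabetic and 2338, 2512, 2510.1 and 2228 in euglycemic libraries. WT 1 was as high as the mutants, and WT 2 and WT 3 were below all 8 of them. As a share of the FPKM outside Ins1 and Ins2, the 67 genes made up 0.751, 0.706 and 0.725% in WT, 0.772, 0.834, 0.84 and 0.764% in diabetic and 0.71, 0.746, 0.746 and 0.825% in euglycemic libraries. On that scale the 3 WT libraries were close together, all 4 diabetic libraries were above them and 3 of the 4 euglycemic libraries were within their range. Euglycemic 4 was above it, and there Eif4ebp1 alone gave 289 FPKM of the sum. That gene gave 145 FPKM in diabetic 2 and 151, 27.4 and 33.8 FPKM in WT. No test was made on these sums.

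**Figure D2:**
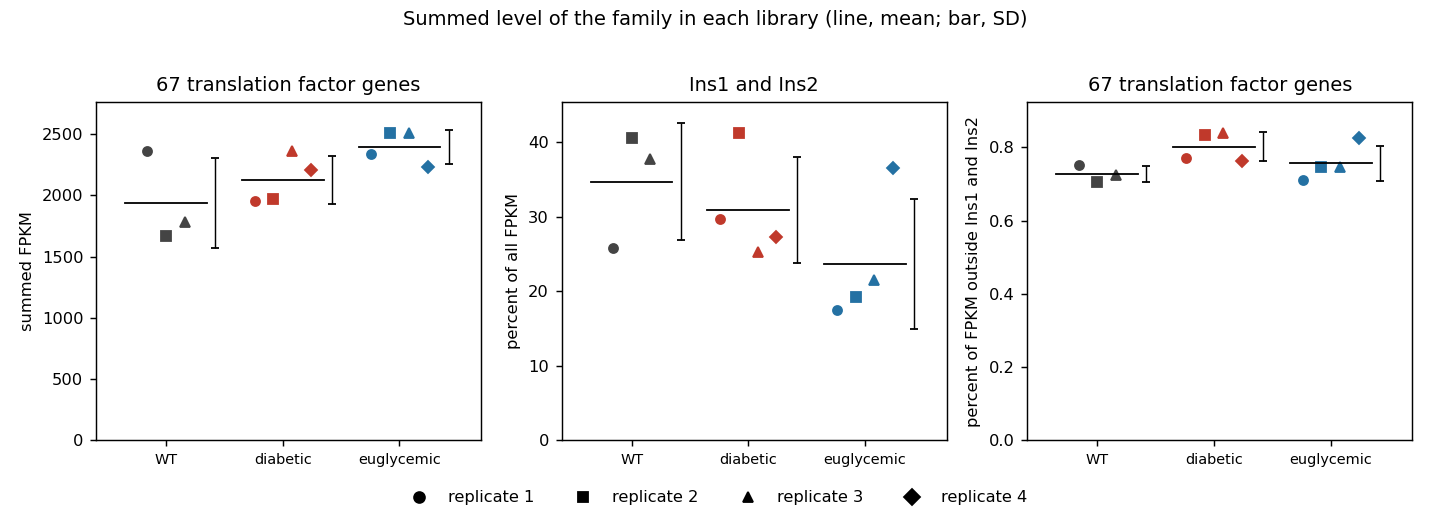
Summed FPKM of the 67 translation factor genes, the share of Ins1 and Ins2 in all FPKM, and the share of the 67 genes in the FPKM outside Ins1 and Ins2, for each library (y axes) by group (x axis). Symbols give the replicate number, lines are means and bars SD (n = 3, 4 and 4). WT 1 lies apart from WT 2 and WT 3 in the left and middle panels and beside them in the right one, where all 4 diabetic libraries lie above WT.

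An eIF2α kinase had the largest log2 fold change of the members tested both in diabetic against WT and in diabetic against euglycemic. Eif2ak3 encodes PERK, the kinase that senses unfolded protein in the endoplasmic reticulum and whose loss causes diabetes in infancy. It was at 12.9, 7.81 and 12 FPKM in WT, 25.1, 21.3, 18.8 and 16.2 in diabetic and 6.39, 8.59, 12.8 and 8.77 in euglycemic libraries. All 4 diabetic libraries were above all 7 others, and the euglycemic and WT ranges overlapped. The log2 fold change was 0.85 ± 0.25 (SE) in diabetic against WT, with an adjusted p of 0.154 in limma. It was 1.09 ± 0.23 in diabetic against euglycemic, with an adjusted p of 0.122 in limma. In euglycemic against WT it was -0.24 ± 0.25, and from -0.44 without WT 2 to -0.10 without euglycemic 1 over the fits without 1 library. Without WT 1 the difference between the mutant groups was again 1.09, with an adjusted p of 0.0415 in limma, while its SE was 0.22 in place of 0.23, and over all alternatives that adjusted p ran from 0.015 to 0.307. Of the exon bases of Eif2ak3, 8.05% overlap a gene on the other strand.

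Eif2ak4 encodes GCN2, which senses uncharged tRNA. It was at 1.6, 2.21 and 2.08 FPKM in WT, 3.79, 3.5, 4.44 and 3.48 in diabetic and 2.41, 2.42, 2.43 and 4.4 in euglycemic libraries. Every mutant library was above every WT library, 3 of the euglycemic ones only narrowly. Diabetic against WT gave a log2 fold change of 0.70 ± 0.21, with an adjusted p of 0.162 in limma. It was 0.38 ± 0.21 in euglycemic against WT and 0.54 ± 0.18 for both groups together, with adjusted p of 0.433 and 0.247 in limma. Without euglycemic 4, the highest euglycemic library, the diabetic difference from WT passed with an adjusted p of 0.0479 in limma, and over all alternatives it ran from 0.0188 to 0.357.

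The other 2 kinases gave no such difference. Eif2ak1, which responds to heme, was at 10.6, 8.62 and 9.45 FPKM in WT, 9.75, 9.26, 12 and 10.2 in diabetic and 10.3, 9.33, 10.5 and 7.61 in euglycemic libraries, and the groups overlapped throughout. Eif2ak2, the double-stranded RNA kinase PKR, was at 0.782, 1.32 and 2.08 FPKM in WT, 1.65, 1.64, 1.51 and 0.329 in diabetic and 1.41, 1.3, 3.72 and 2.35 in euglycemic libraries. Both mutant groups together against WT gave log2 fold changes of 0.04 ± 0.16 for Eif2ak1 and 0.15 ± 0.28 for Eif2ak2, and the sign of each turned when 1 WT library was left out, WT 2 for the first (-0.02) and WT 1 for the second (-0.04).

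**Figure D3:**
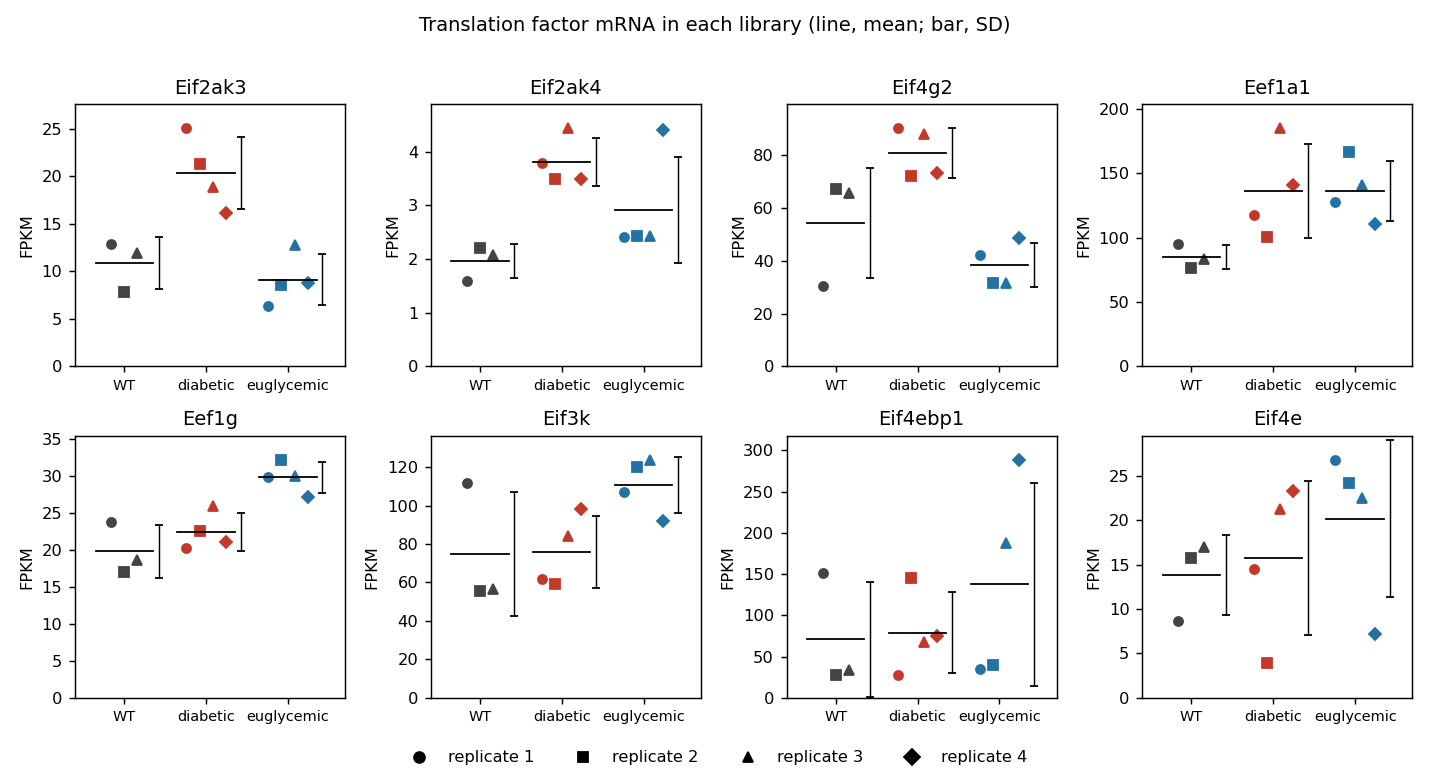
FPKM (y axes, from 0) of 8 translation factor genes in every library by group (x axis). Symbols give the replicate number, lines are means and bars SD (n = 3, 4 and 4). Eif2ak3 was higher in the 4 diabetic libraries than in the 7 others, Eef1a1 and Eif2ak4 were higher in the 8 mutant libraries than in WT, and Eif4ebp1 and Eif4e spread widely inside every group.

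The target of the kinases gave small differences and its exchange factor mixed ones. The 4 eIF2 genes (Eif2s1 for the α subunit, Eif2s2 for β, Eif2s3x and Eif2s3y for γ) had log2 fold changes between -0.28 and 0.37 against WT in the mutant groups, and none reached an unadjusted p of 0.05 in limma. Of Eif2s3x 34.6% of the stretches of 50 bases also occur in other genes. Among the 5 eIF2B subunits Eif2b4 was at 6.32, 4.22 and 3.41 FPKM in WT, 6.84, 7.67, 5.55 and 6.42 in diabetic and 7.07, 6.2, 7.76 and 7.34 in euglycemic libraries. In WT 1 alone it reached the level of the mutants. The log2 fold change for both mutant groups was 0.50 ± 0.18, with an adjusted p of 0.276 in limma.

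Eif2b5, the catalytic subunit of eIF2B, was at 20.1, 21.3 and 20.3 FPKM in WT, 21.4, 15.2, 12.6 and 7.06 in diabetic and 25.7, 20.2, 18.9 and 13.4 in euglycemic libraries. The diabetic libraries spread over 3-fold while the WT libraries were close together, and -0.61 ± 0.30 in diabetic against WT had an adjusted p of 0.455 in limma. Without diabetic 4 the difference was -0.34. Eif2b2 was at 19.7, 15.6 and 16.3 FPKM in WT, 11.2, 10.7, 11.4 and 14.1 in diabetic and 16.5, 19.5, 13 and 6.56 in euglycemic libraries. All 4 diabetic libraries were below WT, with -0.50 ± 0.29, and the euglycemic libraries overlapped both groups.

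The 14 genes of eIF3, the scaffold of the initiation complex, mostly had higher means in the mutants. In both mutant groups against WT 13 of 14 had the higher mean, with a median log2 fold change of 0.23, and none reached an unadjusted p of 0.05 in limma. In diabetic against WT 11 had the higher mean, with a median of 0.11 and none at 0.05. In euglycemic against WT 13 had, with a median of 0.35, and Eif3k and Eif3g reached it. Eif3k was at 112, 55.8 and 56.7 FPKM in WT, 61.8, 59.1, 84 and 98.2 in diabetic and 107, 120.1, 124 and 91.7 in euglycemic libraries. Eif3g was at 156, 83.3 and 94 FPKM in WT, 95.8, 103, 125 and 130.5 in diabetic and 140.2, 164, 158 and 146 in euglycemic libraries. In both genes WT 1 lay inside the euglycemic range and WT 2 and WT 3 far below it. The log2 fold change of Eif3k in euglycemic against WT was 0.63 ± 0.27, with an adjusted p of 0.328 in limma. Without WT 1 it was 0.95 with an adjusted p of 0.0419 in limma, and over all alternatives the adjusted p ran from 0.00325 to 0.832.

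Eif3m was the eIF3 gene with the lower mean in both mutant groups together. It was at 68.9, 41.2 and 39.2 FPKM in WT, 34.4, 31.4, 39.1 and 41.4 in diabetic and 64.7, 58, 38.8 and 24.9 in euglycemic libraries, with -0.26 ± 0.27 for both groups against WT and an adjusted p of 0.817 in limma. This was -0.01 without WT 1 and -0.13 without euglycemic 4, and its sign turned without WT 1, diabetic 1 and euglycemic 4 together (0.13). Eif3f, whose start carries a long run of C and T in the window printed above, was at 15.2, 11.2 and 14.1 FPKM in WT, 12.7, 19, 18.7 and 19.5 in diabetic and 15.9, 19.4, 19.8 and 17.8 in euglycemic libraries. The euglycemic libraries were above WT, 1 diabetic library was within the WT range, and the log2 fold change for both groups was 0.38 ± 0.17 with an adjusted p of 0.443 in limma. Of the stretches of Eif3j2 91.8% are found elsewhere, most of them in Eif3j1, so the level of Eif3j2 is uncertain, and 36.9% of those of Eif3j1 are shared.

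In the eIF4F group the scaffold genes had the largest differences between the mutant groups. Eif4g2, which encodes the eIF4G relative DAP5 that lacks the eIF4E-binding part, was at 30.4, 67.1 and 65.7 FPKM in WT, 90.3, 72.1, 88.1 and 73.2 in diabetic and 42.1, 31.7, 31.7 and 48.5 in euglycemic libraries. All diabetic libraries were above all others, and WT 1 lay with the euglycemic libraries while WT 2 and WT 3 lay above them. The log2 fold change was 1.07 ± 0.25 in diabetic against euglycemic, with an adjusted p of 0.122 in limma. It was 0.64 ± 0.27 in diabetic and -0.43 ± 0.27 in euglycemic against WT, with adjusted p of 0.379 and 0.493 in limma. Without WT 1 the difference between the mutant groups had an adjusted p of 0.0346 in limma, in a range over alternatives of 0.0103 to 0.307, and those against WT were 0.27 and -0.80.

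Eif4g3, a further eIF4G gene, was at 3.6, 4.38 and 5.76 FPKM in WT, 5.94, 6.6, 6.61 and 4.33 in diabetic and 3.31, 3.52, 3.25 and 3.59 in euglycemic libraries. The euglycemic libraries were below the diabetic ones and, narrowly, below WT. Diabetic against euglycemic gave 0.62 ± 0.18 with an adjusted p of 0.133 in limma. The main scaffold Eif4g1 was at 3.59, 9.72 and 8.56 FPKM in WT, 12.2, 13.3, 8.76 and 5.48 in diabetic and 6.59, 5.01, 4.15 and 7.46 in euglycemic libraries, with 0.64 ± 0.31 in diabetic against euglycemic and overlapping groups. The helicase genes Eif4a1 and Eif4a2 and their cofactors Eif4b and Eif4h had no unadjusted p at 0.05 in limma in any comparison. The same held for Eif4a3, which was placed in this group by its symbol. Of Eif4a1, listed at only 4.03 to 10.4 FPKM, 28.4% of the stretches of 50 bases occur in other genes.

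Eif4ebp1, the most abundant 4E-BP here and a known target of ATF4, varied more inside the groups than between them. It was at 151, 27.4 and 33.8 FPKM in WT, 27.6, 145, 68.1 and 74.6 in diabetic and 34.6, 40.2, 188 and 289 in euglycemic libraries. In each group the highest library was more than 5 times the lowest. The log2 fold change was 0.36 ± 0.79 in diabetic and 0.83 ± 0.79 in euglycemic against WT, with adjusted p of 0.904 and 0.659 in limma. The euglycemic difference was 1.59 without WT 1 and 0.29 without euglycemic 4, and between these when any other library was left out. Eif4ebp2 was at 0.674 to 1.54 FPKM in WT, 0.523 to 1.73 in diabetic and 0.891 to 1.25 in euglycemic libraries. Eif4ebp3 was at 0.0978, 0.226 and 0.198 FPKM in WT, listed at 0 in all 4 diabetic libraries and at 0.242, 0, 0 and 0.707 in the euglycemic ones, and 65.5% of its stretches of 50 bases are shared with AC115631.1.

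Eif4e, the cap-binding protein that the 4E-BPs hold, was at 8.64, 15.7 and 17 FPKM in WT, 14.6, 3.94, 21.2 and 23.3 in diabetic and 26.8, 24.2, 22.4 and 7.21 in euglycemic libraries. In each group its lowest library was among those highest in Eif4ebp1. The ratio of the summed FPKM of the 3 4E-BP genes to that of Eif4e was 17.6, 1.81 and 2.1 in WT, 1.93, 37.3, 3.28 and 3.28 in diabetic and 1.35, 1.7, 8.42 and 40.3 in euglycemic libraries. The ratio ranged more than 10-fold inside each mutant group, and no order of the groups can be read from it. Eif4e itself had 0.21 ± 0.47 for both mutant groups against WT.

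The role of scanning and 43S factors was filled by symbol and also holds Eif2d, Eif5b and Eif6. Of its 10 genes 7 had a higher mean in diabetic and 8 in euglycemic βRapKOGFP than in WT. Eif5 was at 143, 116 and 115 FPKM in WT, 167, 132, 206 and 207 in diabetic and 134, 178, 168 and 129 in euglycemic libraries. All but 1 diabetic library exceeded WT, and the log2 fold change of 0.49 ± 0.21 in diabetic against WT had an adjusted p of 0.397 in limma. Eif1 was at 166, 131 and 130.5 FPKM in WT, 127, 144, 163 and 166 in diabetic and 179, 179, 180.1 and 157 in euglycemic libraries. Its differences from WT were 0.07 ± 0.18 in diabetic and 0.29 ± 0.18 in euglycemic libraries, with adjusted p of 0.916 and 0.491 in limma. Eif1b, its paralog, was at 109, 59.8 and 73.2 FPKM in WT, 51.8, 55.2, 88.6 and 85.4 in diabetic and 114, 102, 114 and 73.8 in euglycemic libraries, with -0.53 ± 0.25 in diabetic against euglycemic and an adjusted p of 0.245 in limma. The difference was -0.40 without diabetic 1.

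Of the 5 elongation factor 1 genes tested 4 had a higher mean in diabetic and 5 in euglycemic libraries than in WT, without a call. Eef1a1 was at 95.3, 76.4 and 83.5 FPKM in WT, 118, 101, 185 and 141 in diabetic and 128, 166, 141 and 111 in euglycemic libraries. Every mutant library was above every WT library. Its log2 fold change was 0.64 ± 0.23 in diabetic and 0.67 ± 0.23 in euglycemic against WT, with adjusted p of 0.271 and 0.235 in limma. For both groups together it was 0.65 ± 0.20, with an adjusted p of 0.199 in limma. Of the stretches of 50 bases of Eef1a1, 39.4% occur in 20 other genes, so that its FPKM depends on how such reads were placed.

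Eef1g, a subunit of the exchange factor that reloads eEF1A with GTP, was at 23.8, 17 and 18.6 FPKM in WT, 20.2, 22.5, 26 and 21.1 in diabetic and 29.9, 32.2, 30 and 27.1 in euglycemic libraries. The euglycemic libraries were above all 7 others. Euglycemic against WT gave a log2 fold change of 0.58 ± 0.18, with an adjusted p of 0.181 in limma, and -0.40 ± 0.16 in diabetic against euglycemic. Of Eef1g 44.2% of the stretches are shared, most of them with Gm4366. Eef1e1, part of the tRNA synthetase complex, was at 19.4, 12 and 9.58 FPKM in WT, 13.4, 18, 19.6 and 17.5 in diabetic and 25.7, 22.1, 27 and 13.9 in euglycemic libraries. It had 0.67 ± 0.27 in euglycemic against WT with an adjusted p of 0.293 in limma, and WT 1 lay among the mutants.

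Eef1a2, the isoform of muscle and neurons, was listed at 0 in all 3 WT libraries, at 0.49, 0.932, 0.347 and 0.425 FPKM in diabetic and at 0, 0.0323, 0.192 and 0.959 in euglycemic libraries. It was at most 0.918% of Eef1a1 and Eef1a2 together in any library, and no fold was formed against WT. All diabetic libraries and 3 of the 4 euglycemic ones listed it above 0, far below Eef1a1 throughout.

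Eef2 was at 122, 132 and 167 FPKM in WT, 174, 172, 174 and 141 in diabetic and 152, 187, 159.9 and 161 in euglycemic libraries, with 0.24 ± 0.16 for both groups against WT and an adjusted p of 0.669 in limma. The difference was 0.15 without WT 1 and 0.37 without WT 3. Its kinase Eef2k, which mTORC1 signalling restrains and which slows elongation, was at 0.731, 0.967 and 0.787 FPKM in WT, 2.14, 0.72, 1.48 and 1.28 in diabetic and 1.43, 1.81, 1.5 and 1.91 in euglycemic libraries. All euglycemic and 3 of the diabetic libraries were above WT. Both groups together had 0.45 ± 0.19 with an adjusted p of 0.369 in limma, on the log2(FPKM + 1) scale that understates changes near 1 FPKM. Eif5a, whose protein carries the hypusine residue, was at 68.7 to 155 FPKM over all libraries, and its groups overlapped. Its relative Eif5a2 was at 1.68, 3.35 and 2.36 FPKM in WT, 1.92, 3.03, 2.94 and 1.7 in diabetic and 2.05, 1.27, 1.23 and 0.335 in euglycemic libraries, with -0.67 ± 0.28 in euglycemic against WT and an adjusted p of 0.31 in limma. The difference was -0.45 without euglycemic 4 and -1.11 with a pseudocount of 0.1. With library weights it passed, with an adjusted p of 0.0236 in limma, in a range over alternatives of 0.0236 to 0.772.

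The lysine methyltransferases that modify the elongation factors had the lowest median in diabetic against WT of all roles, -0.26 over 4 genes. Eef1akmt2, which modifies eEF1A, was at 15.1, 11.1 and 10.5 FPKM in WT, 6.95, 8.19, 7.15 and 6 in diabetic and 16.2, 15.5, 9.39 and 7.67 in euglycemic libraries. All diabetic libraries were below WT, with -0.70 ± 0.25 and an adjusted p of 0.273 in limma, and 1 euglycemic library was within the diabetic range. Eef1akmt1 was at 39.2, 22.6 and 24.7 FPKM in WT, 19.7, 13.5, 31 and 25.3 in diabetic and 43.3, 39.7, 30.2 and 19.9 in euglycemic libraries, and the groups overlapped. The remaining genes of the role differed in sign. Eef1akmt3 was at 0.91, 1.08 and 1.63 FPKM in WT, 2.02, 2.52, 2.85 and 0.947 in diabetic and 1.66, 1.81, 1.64 and 1.2 in euglycemic libraries, with 0.45 ± 0.24 in diabetic against WT and an adjusted p of 0.496 in limma. Eef2kmt, which modifies eEF2, had -0.14 ± 0.25 in the same comparison.

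The differences between the mutant groups followed transcript length, in the family as in all genes. Across the 11208 genes tested with an annotated length, Spearman's rho between the longest transcript and the log2 fold change was 0.231 in diabetic against WT, -0.384 in euglycemic against WT and 0.564 in diabetic against euglycemic. Across the 64 members it was 0.381, -0.257 and 0.558. Genes of the same libraries are not independent, and these values are given as a description. In diabetic against euglycemic the median log2 fold change of genes up to 1000 bases was -0.37 and of genes over 5000 bases 0.32. Within each library, the median deviation of genes over 3000 bases minus that of genes up to 1000 bases was -0.46 in WT 1, 0.33 and 0.41 in WT 2 and WT 3, 0.08 to 0.59 in diabetic and -0.41 to -0.25 in euglycemic libraries, so that WT 1 lay with the euglycemic libraries. Eif2ak3, Eif4g2 and Eif4g3 have longest transcripts of 4513, 7995 and 8134 bases, and Eif3k and Eif3g of 909 and 1101.

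With the length trend removed in each library, a setting chosen after the data were seen, diabetic against euglycemic gave 0.86 for Eif2ak3, 0.72 for Eif4g2, 0.27 for Eif4g3, 0.35 for Eif4g1 and -0.19 for Eif1b. Eif3k in euglycemic against WT gave 0.39. Eef1a1 in both groups against WT gave 0.64 and passed with an adjusted p of 0.0461 in limma, in a range over alternatives of 0.0055 to 0.606. The member medians were 0.16 and 0.20 in diabetic and euglycemic against WT after this step, and -0.09 in diabetic against euglycemic. What sets the length trend was not tested.

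**Figure D4:**
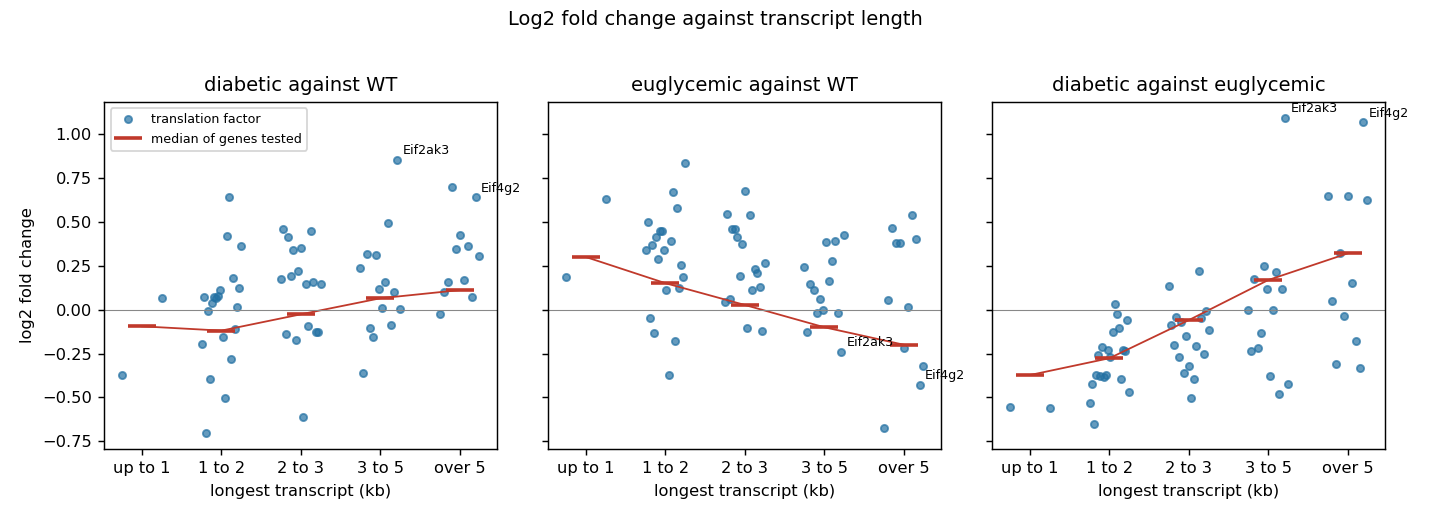
Log2 fold change (y axis) of the 64 translation factor genes (circles) in 5 ranges of the longest annotated transcript in kilobases (x axis), for 3 comparisons, with the median of all genes tested in each range (bars joined by a line). In diabetic against euglycemic the median of all genes climbs from -0.37 to 0.32 with length and the circles follow it, with Eif2ak3 and Eif4g2 above the line.

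Genes that act on these factors gave no calls either in the main fit. Of 51 partner symbols listed (mTORC1 subunits and S6 kinases, poly(A)-binding proteins, stress-response targets, release and recycling factors) 50 were in the table and tested. The other, Gcn1, is a second symbol of Gcn1l1, which was tested. None of the 50 passed an adjusted p of 0.05 with a 1.5-fold change in limma in any of the 4 comparisons. At an unadjusted p of at most 0.05 there were 5 in diabetic against WT, 5 in euglycemic against WT, 13 in diabetic against euglycemic and 5 in both groups against WT, and 2, 2, 7 and 3 of them were higher. These are 10, 10, 26 and 10% of the 50, beside 11.9, 13.9, 20.6 and 11.3% of all genes. Dapl1, known from dormant ribosomes of egg cells, was nearest to a call. It was at 61.8, 50.3 and 70.7 FPKM in WT, 153, 122, 129 and 109.9 in diabetic and 166, 303, 119 and 105 in euglycemic libraries. Every mutant library was above every WT library, with 1.22 ± 0.27 for both groups and an adjusted p of 0.0571 in limma. It passed when rescaled by the median of ratios, with library weights, and without euglycemic 2 or euglycemic 4 (adjusted p of 0.0468, 0.00227, 0.0341 and 0.022 in limma), in a range over alternatives of 0.00227 to 0.32.

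Mknk2, a kinase of eIF4E, was at 1.45, 4.6 and 5.24 FPKM in WT, 1.42, 0.83, 2.41 and 2.51 in diabetic and 1.1, 0.697, 0.879 and 1.04 in euglycemic libraries, with -0.95 ± 0.28 for both groups and an adjusted p of 0.177 in limma. WT 1 lay inside the mutant range. Over all alternatives the adjusted p of Mknk2 ran from 0.00128 to 0.673 in limma. Nupr1, a stress-response gene, was at 8.52, 2.34 and 3.72 FPKM in WT, 6.91, 9.87, 6.37 and 21.7 in diabetic and 4.04, 7.82, 13.1 and 30 in euglycemic libraries, with 1.1 ± 0.50 and an adjusted p of 0.432 in limma. Its adjusted p ran from 0.029 to 0.909 in limma over all alternatives.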

How the data were processed

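RNA of sorted GFP-labelled β-cells was sequenced as poly-A paired-end libraries, and the deposited table holds FPKM per gene for 11 libraries. The authors' methods name Tophat and Cufflinks, whereas the submitters' processing notes name HISAT2 2.0.4, StringTie 1.3.0, edgeR and mm10, so the program that made the deposited FPKM values is uncertain. No read counts were used here. The steps between low values of 4502 single-exon genes came out whole, within 0.02 of a step, in 92.7 to 97.3% of cases, and gave the depths.

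Of the 34745 entries 34267 were matched to a symbol, 478 were not, and 17 with repeated symbols were left out. log2(FPKM + 1) of the 11251 genes with at least 1 FPKM in at least 3 libraries was fitted with limma 3.58.1 (R 4.3.3, trend over mean level, all 3 groups in 1 fit), with Benjamini-Hochberg adjustment. Genes were called where the adjusted p did not exceed 0.05 and the fold was 1.5 or more. The fit was checked on simulated data. Groups came from the labels. The columns of the euglycemic libraries were tied to their samples by inference, from the initials and replicate numbers in the column names. The sources used here do not say for these libraries whether each came from separate animals, so p-values measure the spread between these samples, which may be technical. Genes named were all 4E-BP, eIF2α kinase, eEF1A and eEF2 members, the 5 with the largest positive and the 5 with the largest negative log2 fold change in each comparison, the 5 with the highest mean, any called, and the 3 partners with the largest change in both mutant groups. Others named with values (Eef1akmt3, Eef2kmt, Eif3f, Eif4e, Eif5a and the genes with shared sequence) were chosen after their values were seen. The members, lists and tests were chosen with earlier results of these data known. Shared sequence was counted in stretches of 50 bases of annotated transcripts. Other tools were Python 3.11.15, pandas 2.3.3 and scipy 1.17.1. Alternatives were the pseudocount, filter, scaling (TPM, median of ratios), library weights, samples in the fit, replicate block and leaving out each library. The removal of the length trend and the joint removal of WT 1, diabetic 1 and euglycemic 4 were added after the data were seen.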

Additional observations from a re-analysis of the deposited data

Results flagged for a closer look

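In 62 groups of 4 libraries over the 31 genes named, 4 held a library whose gap to the nearest of the others, divided by the range of the group, was above Dixon's 95% critical value. A share of 0.05 of such groups is marked by chance. Eef2 was lowest in diabetic 4 at 140.5 FPKM, and Eif2ak2 was lowest in the same library at 0.329 FPKM. Eif1 was lowest in euglycemic 4 at 156.7 FPKM, and Eif2ak4 was highest there at 4.40 FPKM. Euglycemic 4 is the library with the most entries listed at 0.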

How the results depend on the processing

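Counts of genes called are given for diabetic against WT, euglycemic against WT, diabetic against euglycemic and both mutant groups against WT, in that order. All genes gave 109, 62, 1 and 118. With no filter these were 22, 13, 0 and 23, with library weights 551, 2287, 1212 and 1116, with the replicate block 45, 20, 0 and 53, and with an unadjusted p and 1.5-fold 929, 1116, 1355 and 779. Diabetic against euglycemic gave 0 with a pseudocount of 0.1, an FPKM of at least 5, TPM, the median of ratios or the length trend removed. With only the groups compared, euglycemic against WT gave 17 and diabetic against euglycemic 6. With the length trend removed both groups against WT gave 192. Without WT 1, diabetic 1 and euglycemic 4 together the last 3 comparisons gave 1274, 268 and 375. Leaving out 1 library gave 26 to 210, 12 to 536, 0 to 378 and 30 to 177.

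Of the translation factor genes 0 were called in each comparison. Library weights gave 5, 19, 5 and 5, and an unadjusted p with 1.5-fold gave 5, 4, 5 and 1. Without the 3 libraries the last 3 comparisons gave 14, 1 and 1, and with the length trend removed the last gave 1 (Eef1a1). Leaving out 1 library gave 0 to 1 (Eif2ak4, without euglycemic 4), 0 to 4 (Eef1g, Eif2b4, Eif3g and Eif3k, without WT 1), 0 to 2 (Eif2ak3 and Eif4g2, without WT 1) and 0. The replicate block gave 0 in all 4. Same-numbered libraries deviated with a mean correlation of -0.13 over 10 pairs (-0.37 to 0.21). Pairs with different numbers had a mean of 0.04 over 30 pairs (-0.32 to 0.36). These values do not show a pairing by number, and whether libraries share a batch was not tested. The Rptor differences ranged from -0.61 to -0.35, -0.79 to -0.53 and -0.70 to -0.44 over the fits without 1 library.

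Of 1041 values of 50 named log2 fold changes under alternatives, 994 kept direction and side of the threshold, 38 passed it and 9, in 5 results, changed sign. For both groups against WT these were Eif2ak1 without WT 2 (-0.025, in a range of -0.025 to 0.11 without 1 library), Eif2ak2 without WT 1 (-0.043, in a range of -0.043 to 0.35) and without the 3 libraries (-0.11), Eif4ebp2 without WT 1 (-0.043, in a range of -0.043 to 0.26) and with library weights (-0.0066), and Eif3m with library weights (0.074) and without the 3 libraries (0.13). Eif2b2 in euglycemic against WT changed sign with library weights (0.0040) and without the 3 libraries (0.019). The cause was not tested. Near 1 FPKM, few fragments stand behind a value at these depths.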
